A study of Mus musculus with 4 samples.

Results

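The 10 genes described here encode regulators that bind to, or place and remove ubiquitin on, the complex that forms at tumour necrosis factor (TNF) receptors. They were chosen by name, as the rows whose symbol was Birc2, Birc3, Xiap, Traf1, Traf2, Traf3, Tnfaip3, Cyld, Rnf31 or Sharpin. All 10 were found among the 24411 genes listed, and all 10 were among the 11167 genes with a value of at least 1 TPM (a transcript level scaled for transcript length and library size) in at least 2 of the 4 libraries.

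The libraries are messenger RNA profiles of 4T1, an established mouse mammary carcinoma line grown in serum-containing medium. The control group holds 2 libraries (control 1 and control 2) and the CD95ko group holds 2 (CD95ko 1 and CD95ko 2). By the protocols, in the knockout lines exon 9 of the gene for the death receptor CD95 (Fas) was targeted by Cas9 with a pair of guide RNAs, after Cas9 had been delivered by a lentivirus and selected with blasticidin. Each knockout line was expanded from 1 sorted cell, so each CD95ko library is 1 clone. The protocols name the RNA sources as a control, the Cas9-expressing line and the 2 clones, and nothing in the titles ties either control library to one of these sources. The name under which the table of control 2 was deposited points to the Cas9-expressing line, but such names were not used to assign libraries. No library repeats a line, so p-values measure the spread between these libraries, and clone-to-clone differences and loss of CD95 cannot be told apart. Fas itself was listed at 49.4 TPM in control 1, at 39.2 TPM in control 2, at 15.8 TPM in the library labelled CD95ko 1 and at 49.5 TPM in the library labelled CD95ko 2 (log2 fold change -0.63, limma adjusted p = 0.615). Fas transcript was therefore not lower in the library labelled CD95ko 2, a gene-level value does not show exon 9 on its own, and every direction below refers to the libraries as labelled.

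The libraries were checked against cell type markers. All 8 mammary epithelial markers reached 1 TPM, with a summed level of 4691 to 4737 TPM over the controls and 8272 to 12650 TPM over the libraries labelled CD95ko. Of 7 leukocyte markers, 6 were listed at 0 in every library, including Ptprc, and only the macrophage-associated Cd68 reached 1 TPM. That list's summed level was 42.1 to 44.6 TPM over the controls and 17.8 to 146 TPM over the libraries labelled CD95ko. Of 4 endothelial markers 3 were at 0 throughout, and their summed level was at most 0.28 TPM. Of 5 fibroblast markers 2 were at 0 throughout, with a summed level of 0.97 to 3.02 TPM over the controls and 2.85 to 4.52 TPM over the libraries labelled CD95ko. Among the epithelial markers, Krt14 and Cldn7 overlapped between the groups, and the others were higher in both libraries labelled CD95ko than in both controls. The part of this epithelial difference in the results below was not tested. The median level of the tested genes was 16.3 TPM in control 2 and 21.3 to 22.9 TPM in the other libraries, and sequencing depth is unknown from TPM.

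When TNF binds its receptor, the adaptors TRADD and TRAF2 recruit the inhibitor of apoptosis proteins cIAP1 (Birc2) and cIAP2 (Birc3), whose ubiquitin chains bring in the linear ubiquitin assembly complex (LUBAC) and the kinases that switch on NF-κB. TRAF3, together with TRAF2 and the cIAPs, also keeps the alternative NF-κB pathway off by marking its kinase for degradation. The deubiquitinating enzymes encoded by Tnfaip3 and Cyld take the signal down again. Birc3, Traf1 and Tnfaip3 are themselves well-known NF-κB target genes, so the pathway feeds back on part of its own machinery.

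The promoters of 6 of the genes are shown, chosen as follows. Birc3, Traf1 and Traf2 were the members lower in both libraries labelled CD95ko. Traf3, Tnfaip3 and Cyld were the members with an upstream stretch that held an NF-κB (κB) consensus match. Each line gives the 250 bases before a transcription start from RefSeq (GRCm38.p6), written 5′ to 3′ on the gene's strand, with κB matches on either strand in capitals. The stretches are chr9:7873171-7873420 for Birc3, chr2:34961773-34962022 for Traf1 and chr2:25546941-25547190 for Traf2, all on the minus strand. They are chr12:111166120-111166369 for Traf3 on the plus strand, chr10:19015411-19015660 for Tnfaip3 on the minus strand and chr8:88696778-88697027 for Cyld on the plus strand.
Birc3: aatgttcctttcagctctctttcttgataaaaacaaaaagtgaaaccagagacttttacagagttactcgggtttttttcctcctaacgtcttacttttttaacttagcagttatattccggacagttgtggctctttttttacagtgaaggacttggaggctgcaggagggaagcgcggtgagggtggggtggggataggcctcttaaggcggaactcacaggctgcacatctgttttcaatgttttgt
Traf1: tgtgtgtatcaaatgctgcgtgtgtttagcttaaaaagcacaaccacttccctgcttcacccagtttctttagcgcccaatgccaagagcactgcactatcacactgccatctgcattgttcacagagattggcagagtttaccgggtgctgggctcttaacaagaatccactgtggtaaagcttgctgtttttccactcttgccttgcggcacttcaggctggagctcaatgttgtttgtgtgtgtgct
Traf2: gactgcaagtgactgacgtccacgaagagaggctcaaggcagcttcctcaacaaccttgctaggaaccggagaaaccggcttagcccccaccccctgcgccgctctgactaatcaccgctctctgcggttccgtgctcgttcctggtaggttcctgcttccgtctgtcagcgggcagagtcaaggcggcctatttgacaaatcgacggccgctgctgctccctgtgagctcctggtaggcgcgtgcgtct
Traf3: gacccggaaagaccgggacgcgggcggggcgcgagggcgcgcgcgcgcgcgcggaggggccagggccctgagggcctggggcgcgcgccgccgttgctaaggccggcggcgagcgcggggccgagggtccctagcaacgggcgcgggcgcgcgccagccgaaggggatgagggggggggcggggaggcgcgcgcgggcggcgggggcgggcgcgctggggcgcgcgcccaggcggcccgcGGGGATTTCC
Tnfaip3: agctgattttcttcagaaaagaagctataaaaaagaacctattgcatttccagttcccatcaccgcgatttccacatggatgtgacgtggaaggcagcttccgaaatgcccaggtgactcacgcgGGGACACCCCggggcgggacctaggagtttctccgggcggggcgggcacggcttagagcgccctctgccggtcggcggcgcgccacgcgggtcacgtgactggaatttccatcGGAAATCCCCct
Cyld: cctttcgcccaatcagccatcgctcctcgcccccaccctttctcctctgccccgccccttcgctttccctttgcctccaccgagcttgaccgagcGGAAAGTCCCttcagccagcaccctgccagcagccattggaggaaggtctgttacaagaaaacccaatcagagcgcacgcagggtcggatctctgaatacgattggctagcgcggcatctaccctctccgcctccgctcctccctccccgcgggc
The match began 10 bases before the start in Traf3 and 155 bases before it in Cyld. The Tnfaip3 stretch shown held 2 matches, beginning 125 and 12 bases before its RefSeq start. Another RefSeq stretch of Tnfaip3, chr10:19011964-19012213, held no κB match and is not shown. Most of the Tnfaip3 stretch shown, with its matches, lies inside the span of Tnfaip3 in the GENCODE M21 annotation used below. A short part of the Birc3 stretch also lies inside its gene's span there, so the annotations place these starts differently. RefSeq gave such stretches for 9 of the 10 genes (Sharpin was the one without), 13 stretches in all, of which 3 held a match. Over all 32851 stretches of the same length, 3.9% held one. A looser form, GGGNNNNNCC on either strand, which contains every κB match, occurred in at least 1 stretch of 7 of the 9 genes, Birc3 and Traf2 included, and in 45.8% of all stretches. These matches describe the letters only. Sequence outside these 250 bases was not searched, and whether a match bears on the level of a gene was not tested.

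In level, Traf1 stood above the other members. Traf1 ranked first among the 10 in each of the 4 libraries, with a mean of 147 ± 76.8 TPM (SD, n = 4), and its lowest value of 76.7 TPM exceeded the highest value of any other member. Below it came Tnfaip3 at a mean of 59.6 TPM, Traf2 at 48.4, Sharpin at 36.8, Rnf31 at 29.8, Cyld at 20.9, Birc2 at 19.1, Traf3 at 18.6, Birc3 at 14.7 and Xiap at 12.3 TPM. From Tnfaip3 downwards, each neighbour in this order overlapped the next in its range over the libraries. By mean level Traf1 stood above 90.9% of the tested genes, and Xiap above 34.5%.

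**Figure D1:**
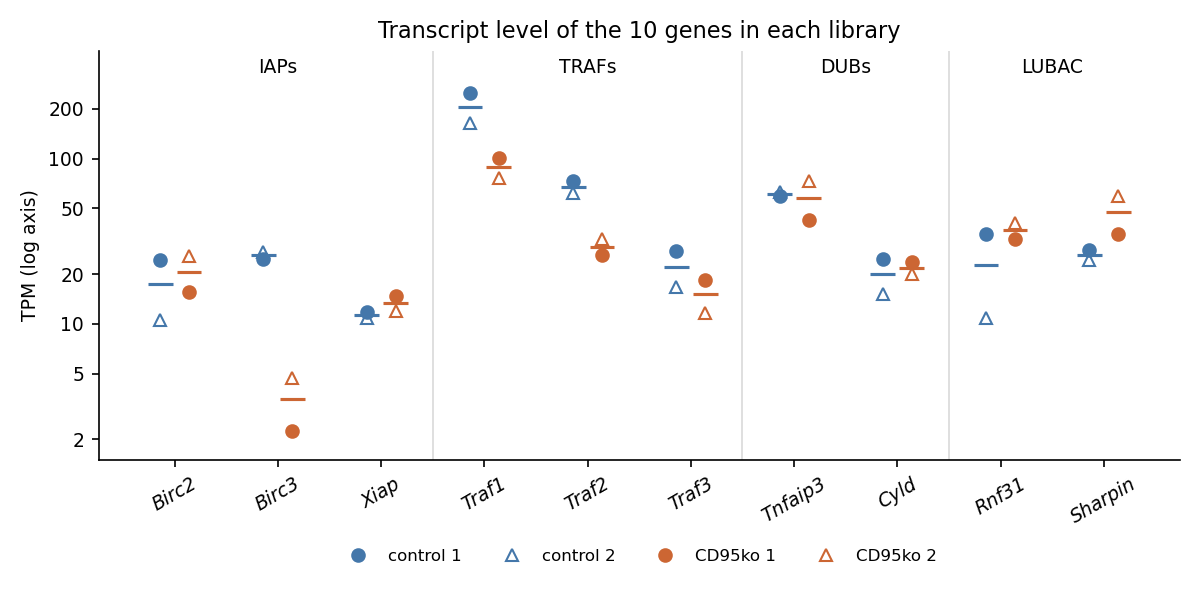
Level of the 10 genes in each library in TPM on a log axis, grouped as inhibitor of apoptosis proteins (IAPs), TRAFs, deubiquitinating enzymes (DUBs) and LUBAC subunits; circles are replicate 1, open triangles replicate 2, and bars are group means (n = 2). Birc3, Traf1 and Traf2 show both CD95ko points below both control points, and Birc3 has the widest gap, with 2.26 and 4.73 TPM against 24.8 and 27.2 TPM.

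The comparison of the 2 groups asks which of these regulators differ in transcript level between the libraries labelled CD95ko and the controls. Birc3, Traf1 and Traf2 were lower in both libraries labelled CD95ko than in both controls, Sharpin and Xiap were higher in both, and the other 5 members overlapped between the groups. With limma's test and Benjamini-Hochberg adjustment over all tested genes, 0 of the 10 members passed an adjusted p of 0.05, where 0.0537% of tested genes did. At an unadjusted p under 0.05 there were 3 members, all lower, against 14.9% of tested genes in either direction, 5.68% in the lower direction and 9.25% in the higher. The 5 members whose groups did not overlap compare with 47.6% of tested genes, so that share is near the background. The 3 lower ones compare with 18.3% and the 2 higher ones with 29.2%. Birc3 was the 1 member over 2-fold apart in all 4 pairs of a CD95ko and a control library, where 5.49% of tested genes were in either direction and 1.96% in the lower. That count was 2 under quantile normalization and 3 with median-of-ratios scaling, and the share of all tested genes was not taken under either. Leaving out a library removes pairs, so that count and the number of members whose groups did not overlap can only rise. The median log2 fold change of the 10 members was 0.02, and that of all tested genes was 0.13. Rescaling moved the latter to 0.002 under quantile normalization and to -0.02 with median-of-ratios scaling. In TPM from bulk cultures, fewer cells of a type and less RNA per cell cannot be told apart.

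The number of members past the adjusted threshold depended on single libraries, and so did the number of all tested genes past it. Both numbers rose with either library labelled CD95ko left out. The log2 fold change of Birc3 was -2.23 without the library labelled CD95ko 1 and -3.05 without the library labelled CD95ko 2. That of Traf1 was -1.39 and -1 in the same fits. A fit without 1 library leaves a lone library in its group, which is assumed to vary like the other group. Without control 1, Birc3 had an adjusted p of 0.556, and without control 2 it had 0.875.

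**Figure D2:**
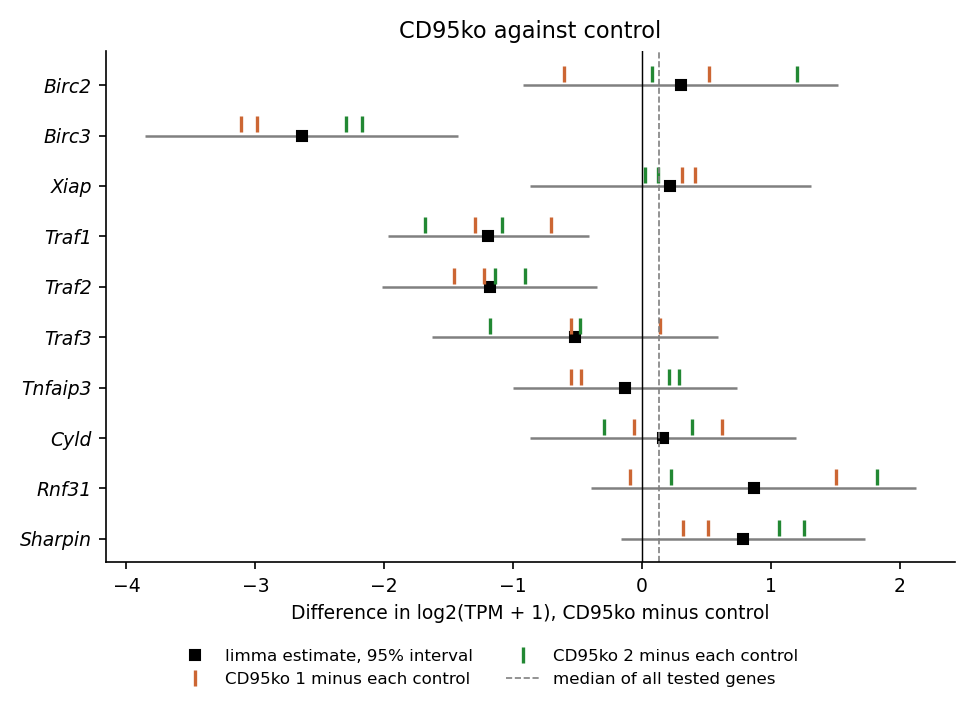
Difference in log2(TPM + 1) between the libraries labelled CD95ko and the controls for the 10 genes; squares are limma estimates with 95% intervals, ticks are the 4 single pairs, and the dashed line is the median of all tested genes at 0.13. The intervals of Birc3, Traf1 and Traf2 lie below 0, and those of the other 7 genes include 0.

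Among the inhibitor of apoptosis genes, Birc3 was low in both libraries labelled CD95ko while Birc2 and Xiap were not. Birc2 and Birc3 encode closely related ubiquitin ligases and lie next to each other on the minus strand of chromosome 9, at chr9:7818227-7837064 and chr9:7848699-7873186 (GENCODE M21, GRCm38, the build the submitters name as mm10). Birc3 was 24.8 TPM in control 1, 27.2 TPM in control 2, 2.26 TPM in the library labelled CD95ko 1 and 4.73 TPM in the library labelled CD95ko 2. The controls were close to each other and both CD95ko libraries were far below them, at 13.5% of the control mean. The means were 26.0 ± 1.69 TPM for the controls and 3.5 ± 1.75 TPM for the libraries labelled CD95ko (SD, n = 2 each), 7.43-fold lower. The log2 fold change was -2.64 ± 0.54 SE with a 95% interval of -3.86 to -1.43, and relative to the median of all tested genes it was -2.77. Its unadjusted limma p of 0.00086 ranked 84th of the 11167 genes, and the adjusted p was 0.114. The value was -2.58 to -2.7 with either control left out, -2.23 without the library labelled CD95ko 1 and -3.05 without the library labelled CD95ko 2.

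Birc2 was 24.3 TPM in control 1, 10.6 TPM in control 2, 15.6 TPM in the library labelled CD95ko 1 and 25.7 TPM in the library labelled CD95ko 2. Its controls differed by 2.30-fold and enclosed one of the CD95ko libraries, so the groups overlapped (log2 fold change 0.30, 95% interval -0.92 to 1.52, limma adjusted p = 0.836). The ratio of Birc3 to Birc2, which can be read between genes because TPM is scaled by length, was 1.02 in control 1 and 2.57 in control 2. It was 0.145 in the library labelled CD95ko 1 and 0.184 in the library labelled CD95ko 2. Birc3 was thus about level with Birc2 in control 1, the higher of the pair in control 2 and the lower of the pair in both CD95ko libraries. Of the 25-nucleotide stretches of the annotated Birc3 transcripts, 13.3% also occur in transcripts of other genes, 5.71% in Gm7019 and 2.3% in Birc2, and how such reads were divided is the quantifier's estimate.

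Xiap encodes the family member that binds and blocks caspases directly, and lies at chrX:42059679-42109656. It was 11.7 TPM in control 1, 10.9 TPM in control 2, 14.8 TPM in the library labelled CD95ko 1 and 12.0 TPM in the library labelled CD95ko 2. It was the steadiest of the 10, with 1.36-fold between its highest and lowest library. The CD95ko values lay just above both controls, a log2 fold change of 0.22 with a 95% interval of -0.87 to 1.31 (limma adjusted p = 0.869).

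**Figure D3:**
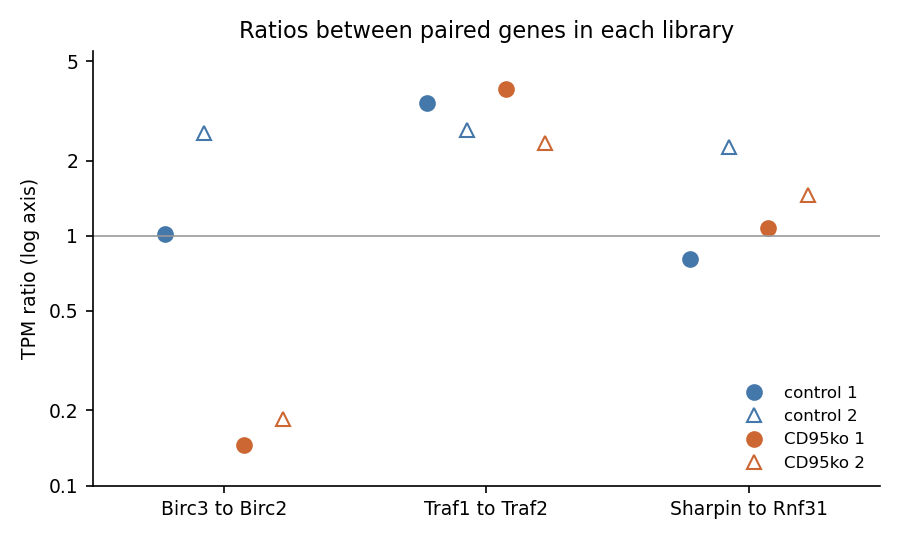
TPM ratio of Birc3 to Birc2, Traf1 to Traf2 and Sharpin to Rnf31 in each library, on a log axis with a line at 1; circles are replicate 1 and open triangles replicate 2. Birc3 to Birc2 is 1.02 and 2.57 in the controls against 0.145 and 0.184 in the libraries labelled CD95ko, whereas the groups overlap in the other ratios.

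Both TRAF genes that lie on chromosome 2 were lower in the libraries labelled CD95ko. Traf1 (chr2:34941750-34961772) encodes the TRAF without a RING domain, which pairs with TRAF2 and holds the cIAPs. It was 248 TPM in control 1, 164 TPM in control 2, 100.3 TPM in the library labelled CD95ko 1 and 76.7 TPM in the library labelled CD95ko 2. All CD95ko values lay below both controls, with 206 ± 59.6 TPM against 88.5 ± 16.7 TPM (SD, n = 2 each), or 42.9% of the control mean. The log2 fold change was -1.19 ± 0.34 SE (95% interval -1.97 to -0.41, limma adjusted p = 0.185, unadjusted 0.00724), and it was -0.9 without control 1, the library that held the highest level.

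Traf2 (chr2:25517982-25546940) encodes the adaptor that brings the cIAPs to TNF receptors. It was 73.1 TPM in control 1, 62.1 TPM in control 2, 26.0 TPM in the library labelled CD95ko 1 and 32.6 TPM in the library labelled CD95ko 2. The groups were separate and each was narrow, with 67.6 ± 7.8 TPM for the controls and 29.3 ± 4.67 TPM for the libraries labelled CD95ko (SD, n = 2 each), or 43.4% of the control mean. The log2 fold change was -1.18 ± 0.37 SE (95% interval -2.02 to -0.35, limma adjusted p = 0.211, unadjusted 0.0109). Relative to the median of all tested genes, Traf1 stood at -1.32 and Traf2 at -1.31. The ratio of Traf1 to Traf2 was 3.4 and 2.64 in the controls, and was 3.86 and 2.35 in the libraries labelled CD95ko, so this proportion overlapped between the groups.

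Traf3 (chr12:111166370-111267153) encodes the adaptor that restrains alternative NF-κB signalling. It was 27.7 TPM in control 1, 16.7 TPM in control 2, 18.5 TPM in the library labelled CD95ko 1 and 11.7 TPM in the library labelled CD95ko 2. Control 2 lay between the CD95ko libraries, and the log2 fold change of -0.52 had a 95% interval of -1.63 to 0.59 (limma adjusted p = 0.652). It was -0.17 without control 1, -0.87 without control 2, -0.83 without the library labelled CD95ko 1 and -0.21 without the library labelled CD95ko 2. Unlike Traf1 and Traf2, it gave no separation of the groups.

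The deubiquitinating enzymes did not separate the groups. Tnfaip3 (chr10:19000910-19015657) encodes a ubiquitin-editing enzyme that ends NF-κB signalling. It was 59.6 TPM in control 1, 63.1 TPM in control 2, 42.8 TPM in the library labelled CD95ko 1 and 72.9 TPM in the library labelled CD95ko 2. The controls were close and the CD95ko libraries lay on either side of them, 1.7-fold apart (log2 fold change -0.13, 95% interval -1.0 to 0.74, limma adjusted p = 0.903). Without the library labelled CD95ko 1 the sign of the difference turned, to 0.25. Tnfaip3 thus differed in pattern from Birc3 and Traf1, the other members named above as NF-κB targets. Whether the genes' differences are unequal was not tested.

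Cyld (chr8:88697028-88751945) encodes an enzyme that trims ubiquitin chains, linear ones included, which carry the TNF signal. It was 24.7 TPM in control 1, 15.1 TPM in control 2, 23.7 TPM in the library labelled CD95ko 1 and 20.0 TPM in the library labelled CD95ko 2. Both CD95ko libraries lay between the controls. The log2 fold change was 0.16 (95% interval -0.87 to 1.2, limma adjusted p = 0.899), and it was -0.04 under quantile normalization.

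Of the genes for the linear ubiquitin complex, Sharpin was higher in both libraries labelled CD95ko, and Rnf31 overlapped between the groups. Sharpin (chr15:76347040-76351111) encodes an accessory subunit. It was 28.0 TPM in control 1, 24.4 TPM in control 2, 35.2 TPM in the library labelled CD95ko 1 and 59.6 TPM in the library labelled CD95ko 2. Both CD95ko values exceeded both controls, with 47.4 ± 17.3 TPM against 26.2 ± 2.55 TPM (SD, n = 2 each), 1.81-fold higher (log2 fold change 0.79 ± 0.42 SE, 95% interval -0.16 to 1.73, limma adjusted p = 0.412). This difference was 0.41 without the library labelled CD95ko 2.

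Rnf31 (chr14:55591708-55603693) encodes the catalytic subunit that builds the linear chains. It was 34.8 TPM in control 1, 10.8 TPM in control 2, 32.6 TPM in the library labelled CD95ko 1 and 40.9 TPM in the library labelled CD95ko 2. The low value was that of control 2, and the other 3 libraries lay close together. The log2 fold change of 0.87 (95% interval -0.39 to 2.13, limma adjusted p = 0.497) was -0.09 for the library labelled CD95ko 1 against control 1 and 1.51 for the same library against control 2. Over both CD95ko libraries it was 1.67 without control 1 and 0.07 without control 2. One exon or more of Rnf31 overlaps Irf9, the interferon response factor gene on the same strand, which was 92.5 TPM in control 1, 35.3 TPM in control 2, 50.9 TPM in the library labelled CD95ko 1 and 47.3 TPM in the library labelled CD95ko 2. Irf9 was looked at after the Rnf31 values had been seen, and its part in the Rnf31 values was not tested. Rbck1, the remaining subunit of the complex, had control levels of 85.0 and 57.7 TPM and levels of 69.0 and 105 TPM in the libraries labelled CD95ko, above Rnf31 in every library. The ratio of Sharpin to Rnf31 was 0.804 and 2.26 in the controls, and was 1.08 and 1.46 in the libraries labelled CD95ko, so the controls spanned the CD95ko libraries.

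The controls also differed from each other within the 10 genes. In control 2, 8 of the 10 were lower than in control 1, which compares with 75.9% of tested genes. Rnf31 and Birc2 were over 2-fold apart between the controls on the log2(TPM + 1) scale, 3.22-fold and 2.30-fold in TPM, where 14.4% of tested genes were over 2-fold apart. Between the libraries labelled CD95ko, 0 of the 10 were over 2-fold apart on that scale, where 23.3% of tested genes were. On the plain TPM scale Birc3 was 2.09-fold higher in the library labelled CD95ko 2 than in the library labelled CD95ko 1, at the low levels given above.

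Around the 10 genes, 4 lists were examined, of which the NF-κB target list held the most genes at an unadjusted p under 0.05. Of 35 genes on the NF-κB target list 32 were tested, and 16 had an unadjusted limma p under 0.05, 15 lower and 1 higher, against 14.9% of all tested genes, while 0 passed the adjusted threshold. The median log2 fold change of the list was -1.46 against 0.13 for all tested genes, and it was -1.34 without the 2 genes listed at 0 in a whole group. Values of some of its genes, Ccl2, Icam1 and Csf1 among them, were known when the list was written, so the list is not independent evidence of its direction. Without control 1 the count was 10 (8.33% of all tested genes), and without control 2 it was 8 (4.2%). Relb, a subunit of the alternative NF-κB pathway, had control levels of 122 and 118 TPM and levels of 29.5 and 21.6 TPM in the libraries labelled CD95ko (log2 fold change -2.2, limma adjusted p = 0.0676). Nfkbia, the classical inhibitor and target of NF-κB, had control levels of 435 and 535 TPM and levels of 112 and 251 TPM in the libraries labelled CD95ko (limma adjusted p = 0.16). The chemokine gene Ccl2 had control levels of 123 and 45.6 TPM, a level of 2.29 TPM in the library labelled CD95ko 1 and was listed at 0 in the library labelled CD95ko 2 (limma adjusted p = 0.0594). The growth factor gene Csf1 had control levels of 524 and 346 TPM and levels of 91.7 and 130 TPM in the libraries labelled CD95ko (limma adjusted p = 0.071). Relb, Ccl2 and Csf1 were named for their small p in this comparison. That they were lower in the same libraries as Birc3 and Traf1 follows from that choice. Of the 32 tested genes, 20 were lower in both libraries labelled CD95ko than in both controls, where 18.3% of all tested genes were. Another 2 were higher in both, where 29.2% were, and the rest overlapped between the groups, as Tnfaip3 did.

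**Figure D4:**
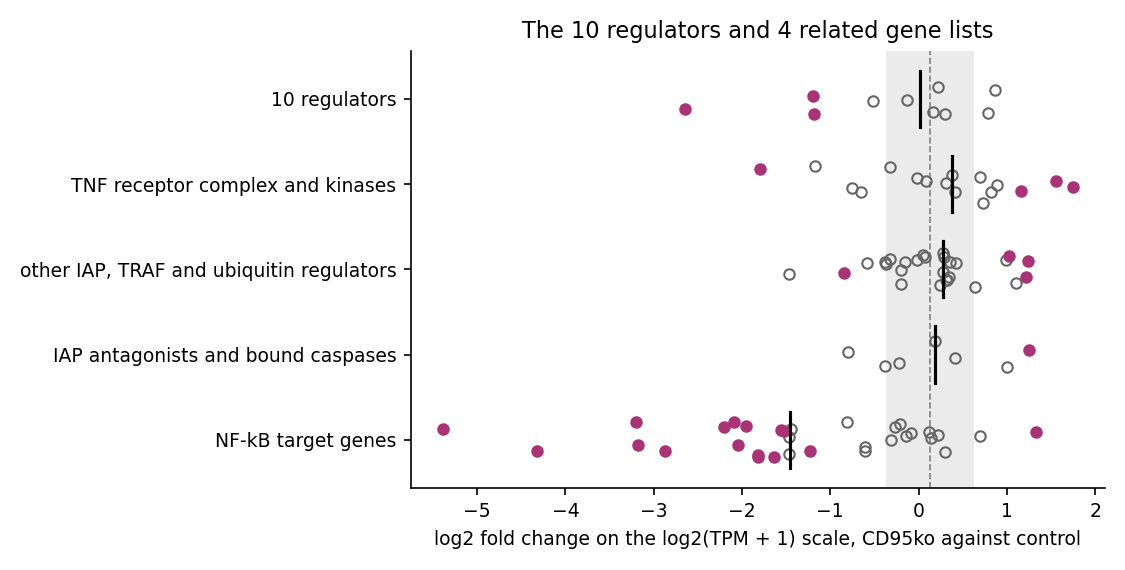
The log2 fold change on the log2(TPM + 1) scale of each tested gene of the 10 regulators and the 4 lists, CD95ko against control; filled points have an unadjusted limma p under 0.05, short black bars are list medians, the dashed line is the median of all tested genes and the shaded band their interquartile range (vertical scatter is for legibility only). The NF-κB target genes have a median of -1.46, and the medians of the other sets lie between 0.02 and 0.38.

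In the receptor complex itself, both directions were seen. Of 17 genes for TNF, its receptors, adaptors and kinases, all tested, 4 had an unadjusted limma p under 0.05, 3 higher and 1 lower, against 14.9% of all tested genes, and 0 passed the adjusted threshold (median log2 fold change 0.38). That count was 1 without control 1 (8.33% of all tested genes) and 1 without control 2 (4.2%). It was 7 without the library labelled CD95ko 1 (24.3%) and 2 without the library labelled CD95ko 2 (12.2%). Tradd, the adaptor that TRAF2 binds, had control levels of 26.7 and 20.2 TPM and levels of 62.1 and 79.0 TPM in the libraries labelled CD95ko (limma adjusted p = 0.147). Tnfrsf1b, the TNF receptor that binds TRAF2 directly, had control levels of 14.3 and 12.3 TPM and levels of 29.1 and 76.0 TPM in the libraries labelled CD95ko (limma adjusted p = 0.191). Tradd and Tnfrsf1b were named for their small p in this comparison. Of the 17 genes, 7 were higher in both libraries labelled CD95ko than in both controls, where 29.2% of all tested genes were. Another 2 were lower in both, where 18.3% were, and the rest overlapped between the groups. Tank, a TRAF-binding adaptor, had control levels of 49.96 and 31.4 TPM and levels of 21.8 and 5.06 TPM in the libraries labelled CD95ko (limma adjusted p = 0.252). Ripk1, the kinase that the cIAPs decorate with ubiquitin, was between 5.23 and 9.00 TPM in all 4 libraries.

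Of 33 further IAP, TRAF and ubiquitin regulators, 27 were tested and 4 had an unadjusted limma p under 0.05, 3 higher and 1 lower, with 0 past the adjusted threshold and a median log2 fold change of 0.28. That count is near the background of 14.9% of all tested genes. The count was 2 under quantile normalization, where 16.7% of all tested genes had such a p. With any 1 library left out, the count moved in the same direction as the share of all tested genes. The deubiquitinating enzyme gene Otub1 had control levels of 255 and 252 TPM and levels of 169 and 117 TPM in the libraries labelled CD95ko (limma adjusted p = 0.267). Tnip2, whose product binds ubiquitin and limits NF-κB, had control levels of 8.14 and 8.93 TPM and levels of 16.6 and 27.7 TPM in the libraries labelled CD95ko (limma adjusted p = 0.289). Otulin, the enzyme specific for linear chains, had control levels of 50.1 and 27.9 TPM and levels of 46.1 and 47.0 TPM in the libraries labelled CD95ko, an overlap like that of Cyld.

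The tested genes outside the 10 whose pattern over the 4 libraries was nearest to Birc3, by Euclidean distance between mean-centred log2(TPM + 1) profiles, were 6030419C18Rik (distance 0.211), Eid2b (0.311) and AA467197 (0.537). For Traf1 they were Chchd10 (0.0618), Matn2 (0.104) and Sdhaf1 (0.112). With 4 libraries such likeness is a description of the values only.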

How the data were processed

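Messenger RNA of 4 cultures of 4T1 cells was sequenced, and the deposited tables pair gene symbols with TPM, per the file headers. The submitters' processing notes name STAR 2.6.0, RSEM 1.3.0 and the build mm10; the annotation and strand setting are not given in the sources used here. TPM keeps no read number, so depth is unknown and no count test or detection floor was used. Groups came from the sample titles. Genes at 1 TPM or more in at least 2 libraries were compared on log2(TPM + 1), a scale that understates the change of low genes, with limma 3.58.1 in R 4.3.3 (eBayes with trend, no covariate, two-sided, Benjamini-Hochberg adjustment over 11167 genes, threshold 0.05). The procedure was tested on simulated data. An exact permutation test of 1 gene with 2 libraries against 2 cannot give a two-sided p under 0.333. The members and lists were chosen with earlier results of these data known. The genes named are the 10 members, Fas, up to 3 genes per list with the smallest unadjusted p under 0.05, direct partners of the members, and the 3 nearest profiles of the 2 members with the smallest p. Some genes that met this rule are not reported here. Gene positions and shared sequence used GENCODE M21 (GRCm38), and promoters RefSeq (GRCm38.p6). Alternatives covered the pseudocount, filter, variance model, scaling, a replicate block and leaving out each library.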

Additional observations from a re-analysis of the deposited data

How the results depend on the processing

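Of the 10 members' log2 fold changes, recomputed under 12 alternatives each, 112 values had the same sign and stayed on the same side of the adjusted threshold, and 5 turned sign. The rest passed that threshold only with a CD95ko library left out, where more of all tested genes passed it too. Under quantile normalization Cyld turned to -0.0444. With a library left out, Birc2 ranged from -0.26 to 0.86, Tnfaip3 from -0.51 to 0.25 and Cyld from -0.175 to 0.504, while Rnf31 (0.07 to 1.67), Sharpin (0.41 to 1.16), Traf3 (-0.87 to -0.17) and Xiap (0.08 to 0.36) did not change sign. Members past the adjusted threshold numbered 0 as reported, and more with either CD95ko library left out, as among all tested genes. Members whose groups did not overlap numbered 5 as reported and 6 to 9 with a library left out. Members over 2-fold apart in all pairs numbered 1 and 2 to 3. Leaving out a library removes pairs, so the last 2 counts can only rise, and the share of all tested genes was not taken for those fits. Members over 2-fold apart in all pairs also numbered 2 under quantile normalization and 3 with median-of-ratios scaling. Genes at an unadjusted limma p under 0.05 ranged, with a library left out, from 1 to 7 for the TNF receptor complex, 0 to 6 for further IAP, TRAF and ubiquitin regulators (2 under quantile normalization), 1 to 2 for proteins that IAPs bind, and 8 to 20 for NF-κB targets. Where no cause is given it was not tested. Same-numbered libraries are different lines, and their deviations from the group means correlated at -0.0814, so the numbers do not pair them; with the replicate block 0 members passed the adjusted threshold and 3 an unadjusted p under 0.05, as without it. Depth is unknown, so no counting error can be given for low values such as those of Birc3.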

Other observations

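Among the 7 genes for proteins that IAPs bind, all tested, Diablo, which encodes a mitochondrial antagonist of the IAPs, had control levels of 24.8 and 18.8 TPM and levels of 34.5 and 17.6 TPM in the libraries labelled CD95ko. Its groups overlapped (log2 fold change 0.18, limma adjusted p = 0.89). Htra2, which encodes another mitochondrial protein that binds IAPs, had control levels of 115 and 85.8 TPM and levels of 58.2 and 125 TPM in the libraries labelled CD95ko, and its groups overlapped too (limma adjusted p = 0.85). Htra2 was chosen after its values were seen. The median log2 fold change of the 7 genes was 0.18, against 0.13 for all tested genes. Of the 7, 1 had an unadjusted limma p under 0.05, and it was higher in the libraries labelled CD95ko. Of all tested genes, 14.9% had such a p in either direction and 9.25% in the higher, and 0 of the 7 passed the adjusted threshold.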
